A study of Mus musculus with 8 samples.

Results

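The 10 genes described here encode the interleukin-1 family cytokines and receptors and the NLRP3 inflammasome: the ligands Il1b and Il33, the receptor antagonist Il1rn, the receptor chains Il1r1, Il1rap, Il1r2 and Il1rl1, and the inflammasome components Nlrp3, Pycard and Casp1. They were taken by symbol from a fixed list of 10 names, all 10 were found among 38293 gene identifiers, and all 10 had enough counts to enter the test with 13972 genes. The samples were left ventricles of C57BL/6J mice harvested at day 3 after cardiac ischemia-reperfusion, in which a coronary artery is tied and then released. Each ventricle was injected in the muscle wall with UPy-PEG, a self-assembling polymer hydrogel, in 2 injections of 10 µl. The hydrogel group (4 libraries) received the gel alone, without a drug, and the antimiR-195 group (4 libraries) received gel loaded with antimiR-195, an antisense inhibitor of miR-195. No uninjured, untreated or gel-free group entered the comparison, so injury and gel are common to every library. The labels do not say that each library came from a separate animal, and p-values therefore measure the spread between libraries.

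Interleukin-1β is made as an inactive precursor. The sensor NLRP3, the adaptor ASC (gene Pycard) and caspase-1 assemble into an inflammasome, which cuts the precursor into the active cytokine. Active interleukin-1β binds IL1R1, which pairs with the accessory chain IL1RAP and signals through MyD88 to NF-κB. The antagonist IL1RN occupies IL1R1 without signalling, and IL1R2 is a decoy receptor that binds the cytokine without signalling. Interleukin-33 is an alarmin stored in the nuclei of stromal cells and released on damage, and its receptor is ST2 (gene Il1rl1), which also pairs with IL1RAP. In the infarcted heart this system is known for driving early leukocyte recruitment. Activation of the precursor and release of interleukin-33 are steps on protein, which RNA counts do not measure.

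The 3 receptor genes Il1r2, Il1r1 and Il1rl1 are neighbours on the plus strand of chromosome 1 (GRCm38), Il1r2 at 40074079 to 40125231, Il1r1 at 40225080 to 40317257 and Il1rl1 at 40429570 to 40465415. Il1rap lies on chromosome 16 at 26581704 to 26730117. Among the ligand genes, Il1b lies at 129364570 to 129371139 and Il1rn at 24336853 to 24351494 on chromosome 2, and Il33 lies on chromosome 19 at 29925114 to 29960718. The inflammasome genes are spread over chromosome 11 (Nlrp3, 59541568 to 59566956), chromosome 7 (Pycard, 127989708 to 127993867) and chromosome 9 (Casp1, 5298517 to 5307265). All values are sums over each gene's exons.

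The inhibitor in the gel is directed at miR-195, so the members were searched for its seed match. The mature sequence is shown because its bases 2 to 8, in capitals, are the seed that pairs with targets. It is taken from RefSeq (GRCm38.p6) and lies at chr11:70235062-70235082 on the plus strand.
mmu-miR-195a-5p: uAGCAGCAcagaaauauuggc
Of the mature mouse microRNAs in RefSeq, 10 carry this seed, counting mmu-miR-195a-5p itself. Among the others are mmu-miR-15a-5p, mmu-miR-16-5p and mmu-miR-497a-5p. The words searched on the sense strand of 3′ UTRs were TGCTGCTA (8mer), TGCTGCT (7mer-m8, when not part of the 8mer) and GCTGCTA (7mer-A1, when not part of the 8mer). The longest annotated 3′ UTR of at least 50 bases was used for each gene, and 9 of the 10 members had one. Il1r2 had none and was not searched, and Casp1 was searched over only 88 bases. Il1r1 held 3 matches and Il1rl1 held 1, all of the 7mer-m8 class. The other 7 members with a UTR held no match, and none of the 9 searched held an 8mer. Sites are shown with the match in capitals, in GRCm38 on the plus strand of chromosome 1.
Il1r1, base 196 of the UTR, chr1:40313576-40313596: ggttgctcagggaTGCTGCTc
Il1r1, base 1115, chr1:40314495-40314515: gtcatcccaacccTGCTGCTt
Il1r1, base 3403, chr1:40316783-40316803: ttaagagctaggcTGCTGCTc
Il1rl1, base 2443, chr1:40464599-40464619: gcttcctcatgccTGCTGCTc
Thus 22.2% of the members with a UTR held a match, against 23.8% of 20676 protein-coding genes. The median UTR searched was longer for the members, 1864 bases against 988, so these shares are not like for like. A match is a description of the letters and was not tested as a site.

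Libraries held 16872968 to 22751753 gene counts. AntimiR-195 replicate 2 stood apart, with correlations of log2 CPM (counts scaled to a common library size) across genes of 0.943 to 0.969 with the other libraries, against 0.978 to 0.991 between the rest. In that library short genes lay high and long genes low. With the tested genes cut by length into 3 equal groups, its log2 CPM minus the mean of the other 7 libraries had a median of 0.35 in the shortest group and -0.29 in the longest. Values for the members are therefore given with and without it. The tissue label matched its markers: the ventricular myosin light chain Myl2 was at 5243 to 9902 CPM, and the atrial Myl7 at 0.224 to 13.7 CPM. In bulk tissue, fewer cells of a type and less RNA per cell cannot be told apart.

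No member passed the test of antimiR-195 against hydrogel. In edgeR's quasi-likelihood test over all genes 0 members passed at adjusted p below 0.05 (0% of the genes tested passed), and the adjusted p of each was 0.9999. With no adjustment 0 members had a p below 0.05, against 1.27% of all genes, and DESeq2, limma-voom and limma-trend also gave 0 members at that level. In 0 members did the groups separate completely, against 1.07% of all genes. Of the 10 log2 fold changes 9 were positive, where 52.4% of all genes were positive. The members' median was 0.10, against 0.01 over all tested genes, and without antimiR-195 replicate 2 the signs of Il1b, Il1r2, Casp1 and Pycard turned negative.

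**Figure D1:**
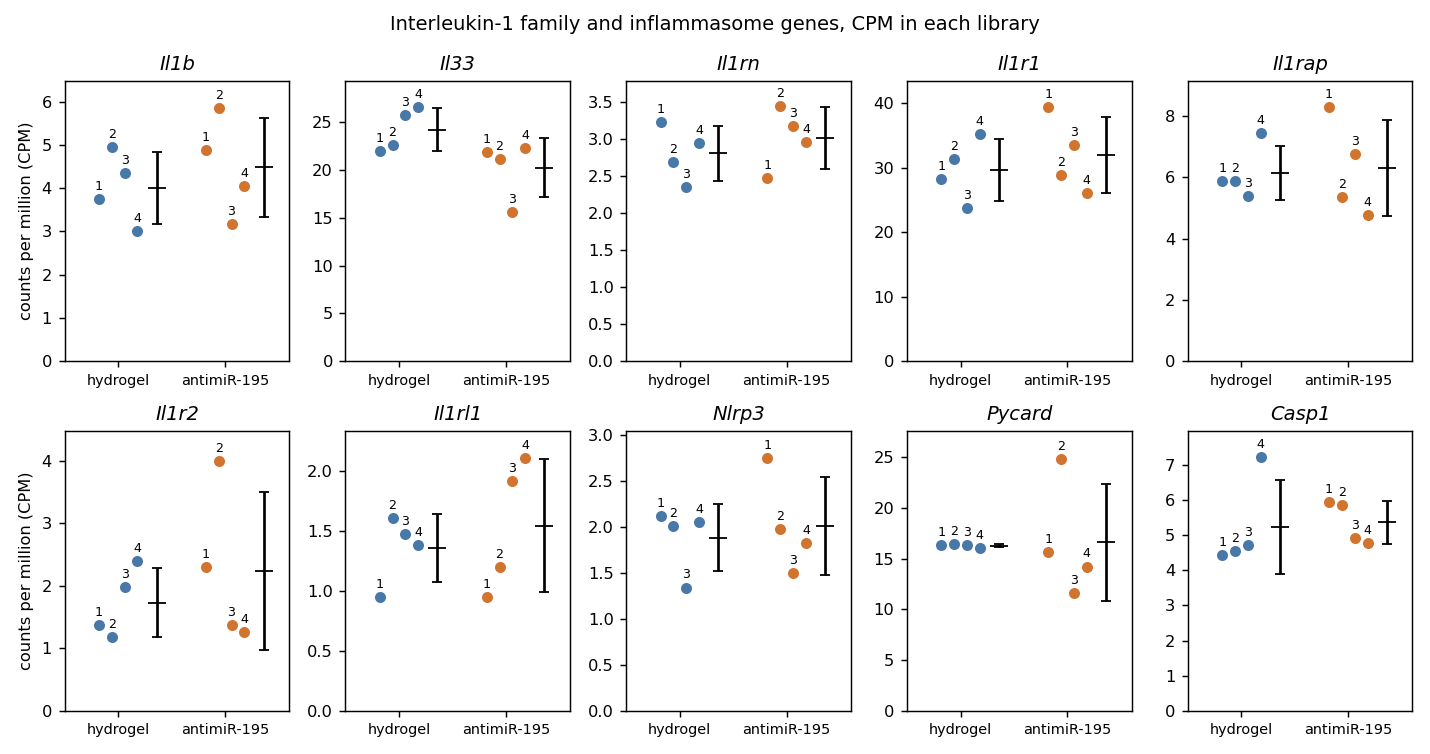
CPM of each member (y axis, from 0) in the 4 hydrogel libraries (blue) and the 4 antimiR-195 libraries (orange); digits are replicate numbers, and the black bar is the group mean with its SD. The groups overlap in every panel, and Il33 and Pycard are the members with 3 antimiR-195 libraries below all hydrogel libraries.

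Among the ligands, Il33 had the smallest p of the members. Il33 was at 21.95, 22.64, 25.76 and 26.59 CPM in hydrogel replicates 1 to 4 and at 21.85, 21.17, 15.62 and 22.33 CPM in antimiR-195 replicates 1 to 4. Of the antimiR-195 libraries 3 lay below every hydrogel library, and replicate 4 lay between hydrogel replicates 1 and 2. Means were 24.2 ± 2.28 CPM with hydrogel and 20.2 ± 3.12 CPM with antimiR-195 (SD, n = 4 each), a log2 fold change of -0.26 ± 0.14 (SE) with an unadjusted p of 0.088 and an adjusted p of 0.9999 in edgeR's test. The 95% confidence interval ran from 0.676-fold to 1.03-fold. The sign was negative under all 13 alternatives run, from -0.32 to -0.15, the latter without antimiR-195 replicate 3, the lowest library. Without antimiR-195 replicate 2 the difference was -0.29 ± 0.14.

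Il1b was at 3.75, 4.94, 4.34 and 3.00 CPM in the hydrogel libraries and at 4.87, 5.85, 3.17 and 4.04 CPM in the antimiR-195 libraries. The highest value was that of antimiR-195 replicate 2, and the other 3 antimiR-195 libraries lay within the hydrogel range. These levels came from 53 to 107 counts per library. The log2 fold change was 0.16 ± 0.23, with an interval from 0.789-fold to 1.59-fold, and it was -0.00 ± 0.22 without antimiR-195 replicate 2. Of its exonic bases 25 are shared with the antisense gene Il1bos.

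The antagonist Il1rn was the steadiest member, at 3.23, 2.69, 2.35 and 2.94 CPM with hydrogel and 2.47, 3.45, 3.17 and 2.96 CPM with antimiR-195. Its coefficient of variation over the 8 libraries was 13.1%, close to the 13.6% that counting error alone would give at its mean count. No library stood out, and the groups covered almost the same range. The log2 fold change was 0.11 ± 0.19, or 0.03 ± 0.20 without antimiR-195 replicate 2. Counts per gene do not separate its secreted and intracellular forms, which come from 4 annotated coding transcripts.

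The signalling receptor chains were the members whose libraries ranked most alike. Il1r1 was at 28.2, 31.4, 23.8 and 35.2 CPM with hydrogel and at 39.4, 28.8, 33.5 and 26.1 CPM with antimiR-195. Il1rap was at 5.87, 5.87, 5.40 and 7.44 CPM with hydrogel and at 8.29, 5.36, 6.76 and 4.78 CPM with antimiR-195. In both genes antimiR-195 replicate 1 was highest, with hydrogel replicate 4 next to it. Log2 fold changes were 0.11 ± 0.16 for Il1r1, the member with 3 seed matches, and 0.04 ± 0.20 for Il1rap. Of the exonic bases of Il1rap 552 are shared with the antisense gene Gm20319, the largest such overlap among the members. Leaving out antimiR-195 replicate 1 gave -0.01 and -0.13, so the sign of both rested on that library, and Il1rap was also at -0.02 without hydrogel replicate 3. Leaving out antimiR-195 replicate 2 gave 0.15 ± 0.16 and 0.10 ± 0.20.

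Across the 8 libraries log2 CPM of Il1r1 and Il1rap had a Pearson r of 0.910 (exact permutation p = 0.00193) and a Spearman rho of 0.833 (exact permutation p = 0.0154). Over the 45 pairs of members compared, the adjusted permutation p was 0.0871 for r and 0.692 for rho, so the relation did not pass. Without antimiR-195 replicate 1 and hydrogel replicate 3, the libraries farthest from the median of Il1r1, r was 0.947, and with antimiR-195 replicate 2 alone left out it was 0.920. Of the 45 pairs 0 passed after adjustment and 4 had an unadjusted exact permutation p below 0.05 for r. Il1b and Nlrp3, the cytokine and the inflammasome sensor, had an r of 0.270 (exact permutation p = 0.522, adjusted 0.859). Their rho was 0.0238 (exact permutation p = 0.977, adjusted 0.999), and r was 0.499 without the libraries farthest from the median.

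**Figure D2:**
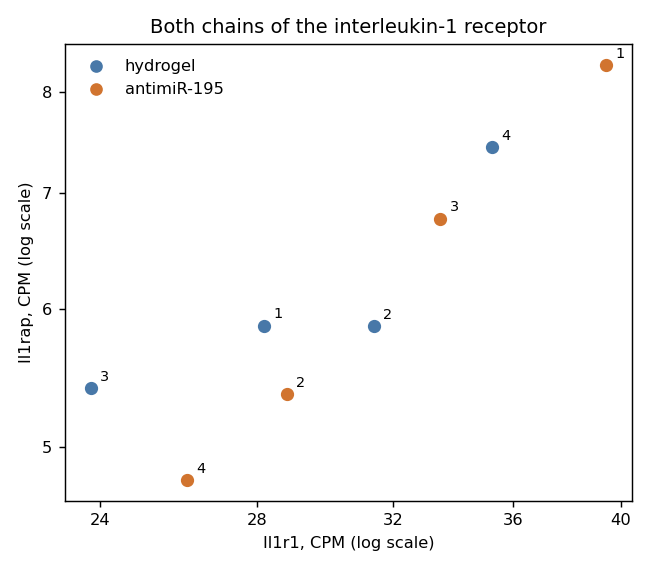
CPM of Il1r1 (x axis) and Il1rap (y axis), both on log scales, in the 4 hydrogel (blue) and 4 antimiR-195 (orange) libraries, labelled with replicate numbers. Both chains are highest in antimiR-195 replicate 1 (39.4 and 8.29 CPM), and the groups are interleaved along the trend.

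The decoy receptor Il1r2 had the widest spread of the members, with a coefficient of variation of 47.6%, against 16.5% from counting error. It was at 1.38, 1.17, 1.98 and 2.39 CPM with hydrogel and at 2.30, 3.99, 1.38 and 1.25 CPM with antimiR-195. AntimiR-195 replicate 2 alone lay above the hydrogel range. Il1r2 had the largest log2 fold change of the 10, 0.37 ± 0.39, and -0.08 ± 0.32 without that library. The interval from 0.716-fold to 2.34-fold does not exclude a doubling (2-fold). Neutrophils carry Il1r2, and the neutrophil genes S100a8 and S100a9 were also highest in antimiR-195 replicate 2, at 20.5 and 31.9 CPM. The 11 neutrophil markers summed to 33.5 to 42.6 CPM in the hydrogel libraries, 82.5 CPM in antimiR-195 replicate 2 and 30.5 to 39.5 CPM in the other antimiR-195 libraries, with Ly6g at 0 counts in all 8. Without S100a8 and S100a9, short genes of 392 and 522 bases, the other 9 markers summed to 30.2 CPM in antimiR-195 replicate 2, 17.7 to 27.3 CPM with hydrogel and 19.0 to 23.98 CPM in the remaining antimiR-195 libraries. Of the 7 tested markers 4 were highest in antimiR-195 replicate 2, while the neutrophil receptors Csf3r and Cxcr2 were not. The share of all tested genes highest in that library was not counted. The part of neutrophils in the Il1r2 values was not tested.

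Il1rl1, which encodes ST2, had the fewest counts, 17 to 37 per library. It was at 0.952, 1.61, 1.48 and 1.39 CPM with hydrogel and at 0.952, 1.20, 1.92 and 2.11 CPM with antimiR-195. AntimiR-195 replicates 3 and 4 lay above all hydrogel libraries, while replicate 1 was level with the lowest of them. The log2 fold change was 0.18 ± 0.30, with an interval from 0.713-fold to 1.80-fold, and was 0.27 ± 0.31 when antimiR-195 replicate 2 was left out and -0.02 when replicate 4 of the same group was. ST2 is made as a membrane receptor and as a soluble form that lacks signalling, and counts over its 5 coding transcripts do not tell them apart. Mast cells and regulatory T cells are known to carry ST2. The 8 mast cell markers summed to 9.63 to 15.0 CPM with hydrogel and 11.6 to 13.4 CPM with antimiR-195, with Ms4a2 at 0 to 1 counts per library. Of the 6 tested mast cell markers 3 were positive and 3 negative. Cpa3, a mast cell protease, was at 0.554 to 0.733 CPM with hydrogel and 0.968 to 1.18 CPM with antimiR-195, from 12 to 21 counts. Its groups did not overlap, as for 1.07% of all tested genes (unadjusted p of 0.0171 and adjusted p of 0.9999 in edgeR's test). The 8 markers of T cells and type 2 innate lymphoid cells summed to 5.40 to 7.43 CPM with hydrogel and 5.87 to 6.88 CPM with antimiR-195, with the regulatory T cell factor Foxp3 at 0 to 2 counts. Gata3, of the same list, went the other way without overlap, at 0.489 to 0.582 CPM with hydrogel and 0.180 to 0.456 CPM with antimiR-195. It had 3 to 12 counts per library and was not among the tested genes, so the share of 1.07% does not cover it. The part of mast cells, T cells and type 2 innate lymphoid cells in the Il1rl1 values was not tested.

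Of the inflammasome components, Pycard showed the sharpest contrast in spread. It was at 16.3, 16.4, 16.3 and 16.0 CPM with hydrogel and at 15.7, 24.9, 11.7 and 14.2 CPM with antimiR-195. The hydrogel libraries varied by 1.05%, less than the 5.57% that counting error alone gives, whereas the antimiR-195 libraries varied by 34.6%. The 34.6% includes antimiR-195 replicate 2 at 24.9 CPM, and the other 3 antimiR-195 libraries lay between 11.7 and 15.7 CPM. The antimiR-195 group held both the highest and the lowest library. Its log2 fold change was 0.03 ± 0.20. Without antimiR-195 replicate 2 it was -0.24 ± 0.12, since the other 3 antimiR-195 libraries each lay below the lowest hydrogel library. The adjusted p of edgeR's test was then 0.9992. Pycard shares 485 exonic bases with the antisense gene Gm45205, and the strand setting of the counting is not given in the sources used here.

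Nlrp3 was at 2.12, 2.00, 1.34 and 2.05 CPM with hydrogel and at 2.75, 1.97, 1.496 and 1.82 CPM with antimiR-195. Apart from antimiR-195 replicate 1, the antimiR-195 libraries lay within the hydrogel range, in which hydrogel replicate 3 was low. Its log2 fold change was 0.10 ± 0.25, with -0.09 when antimiR-195 replicate 1 was left out, -0.03 when hydrogel replicate 3 was and 0.11 ± 0.27 when antimiR-195 replicate 2 was. Casp1, the protease, was at 4.44, 4.55, 4.71 and 7.22 CPM with hydrogel and at 5.94, 5.85, 4.91 and 4.78 CPM with antimiR-195. Hydrogel replicate 4 held the highest Casp1 value, and the other 3 hydrogel libraries lay below every antimiR-195 library. Its log2 fold change was 0.04 ± 0.19, or 0.23 when hydrogel replicate 4 was left out and -0.01 ± 0.20 when antimiR-195 replicate 2 was. For both genes the groups overlapped.

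**Figure D3:**
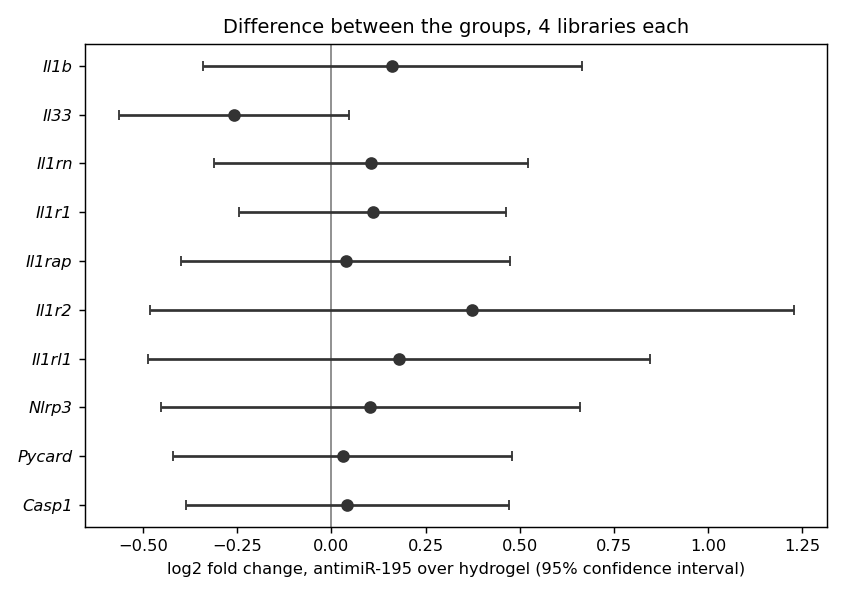
Log2 fold change of antimiR-195 over hydrogel (x axis) for each member (y axis), with an approximate 95% confidence interval derived from edgeR's test. Every interval includes 0; Il33, at -0.26, lies farthest from 0 relative to its error, and Il1r2 has the widest interval.

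By the lengths that the RPKM values imply, short and long members stood differently in antimiR-195 replicate 2. Il1r2, Pycard and Il1b, of 1337, 1405 and 1907 bases, were 1.24, 0.71 and 0.55 higher on the log2 scale in that library than in the mean of the others. Casp1, of 1497 bases, was 0.18 higher. The long transcripts Il1rl1 (6894 bases) and Il1rap (11360 bases) deviated by -0.23 and -0.22. Il1b, Il1rn, Il1r2 and Pycard were each highest of all 8 libraries there, and the share of all tested genes highest there was not counted. The members of intermediate length, Il1rn, Nlrp3, Il33 and Il1r1, deviated by 0.28, 0.05, -0.06 and -0.09. With GENCODE M21 exon lengths the order is less regular, since Pycard then has 3800 bases, more than Il33 at 2886, and Il1rn has 5535. The part of gene length in these values was not tested.

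**Figure D4:**
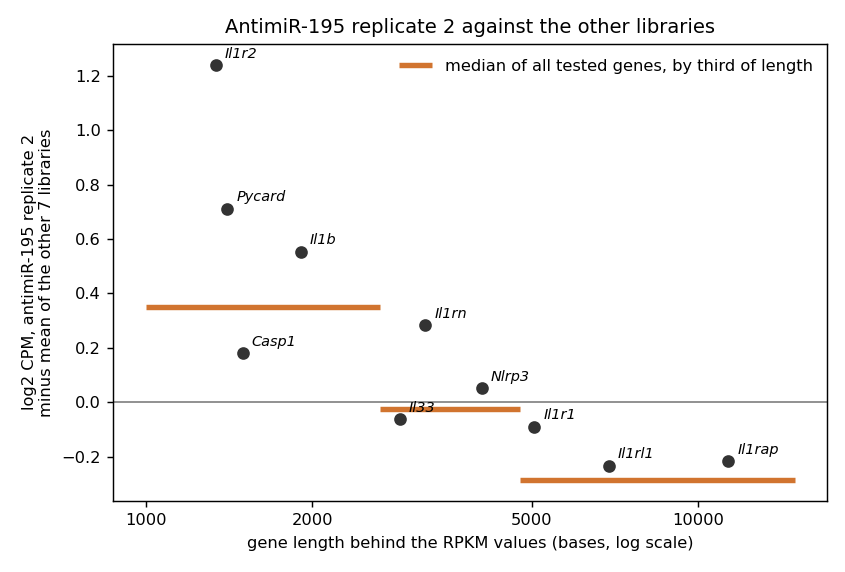
Log2 CPM in antimiR-195 replicate 2 minus the mean of the other 7 libraries (y axis) against gene length in bases (x axis, log scale) for each member (points), with the median of all tested genes in each of 3 equal groups by length (orange bars, drawn to the plot's limits). Short members such as Il1r2 (1.24) lie above 0 and long members such as Il1rap (-0.22) below; lengths are those implied by the RPKM values.

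Ratios within a library compare members with each other without scaling between libraries. Log2 Il1rn over Il1b, antagonist over agonist, was -0.49 ± 0.43 with hydrogel and -0.53 ± 0.42 with antimiR-195 (SD, n = 4, log2 of CPM + 0.1, exact permutation p = 0.886). Replicates 1 and 3 of the antimiR-195 group held its lowest and highest values, -0.96 and 0.00, so the spread within the group was many times the difference. Log2 Il1r2 over Il1r1, decoy over signalling receptor, was -4.06 ± 0.49 against -3.91 ± 0.75 (exact permutation p = 0.771), and the difference of 0.15 became -0.22 without antimiR-195 replicate 2. Log2 Il33 over Il1rl1, ligand over receptor, was 4.08 ± 0.28 against 3.68 ± 0.64 (exact permutation p = 0.257), a difference of -0.40 that lay between -0.63 and -0.16 when single libraries were left out. AntimiR-195 replicates 3 and 4, at 2.96 and 3.34, were below all hydrogel libraries, and replicates 1 and 2 were within their range. Log2 Casp1 over Nlrp3 was 1.42 ± 0.39 against 1.40 ± 0.24 (exact permutation p = 0.914). Adjusted over the 4 ratios each p was 0.914, and the smallest p that 70 assignments of the libraries allow is 0.0286.

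Levels of different genes were compared per length, with the authors' deposited RPKM (reads scaled by gene length and library size). From highest to lowest the mean RPKM over 8 libraries was 11.7 ± 2.91 for Pycard, 7.70 ± 1.15 for Il33, 6.11 ± 1.12 for Il1r1, 3.55 ± 0.728 for Casp1 and 2.23 ± 0.526 for Il1b. Below these came Il1r2 at 1.49 ± 0.747, Il1rn at 0.907 ± 0.133, Il1rap at 0.549 ± 0.113, Nlrp3 at 0.480 ± 0.114 and Il1rl1 at 0.210 ± 0.0583 RPKM. The top and bottom of this order were 56.0-fold apart. Il33 exceeded Il1r1 in 6 of 8 libraries and Il1rap exceeded Nlrp3 in 5 of 8, so neither pair of neighbours differed beyond its spread, and Il1b exceeded Il1r2 in 7 of 8. The other neighbours held their order in 8 of 8 libraries, although Nlrp3 and Il1rl1 were the one neighbouring pair whose ranges did not overlap.

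The order depends on the gene lengths used. The RPKM values imply a Pycard length of 1405 bases, whereas the union of its exons in GENCODE M21 is 3800 bases, and Il1r1, Il1r2 and Il1rn also have longer models there. With M21 lengths Pycard took the third place at 4.34, behind Il33 at 7.70 and Il1r1 at 4.85, and Il1rn, at 0.526, moved below Il1rap. The counts were not made again over M21 exons, so dividing them by a longer M21 length can understate a level. Comparisons between groups use 1 length per gene and are unaffected.

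**Figure D5:**
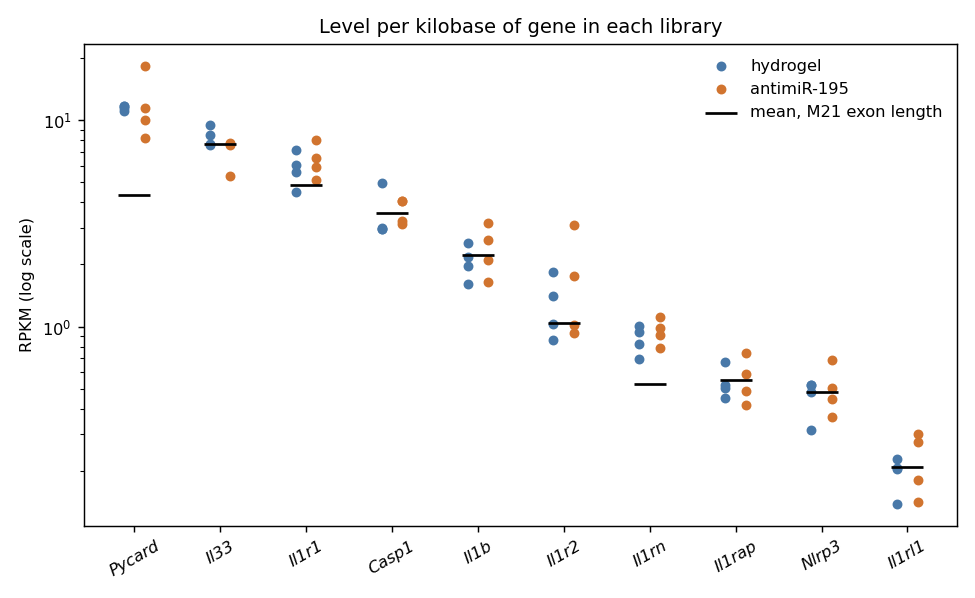
RPKM of each member (y axis, log scale) in the 4 hydrogel (blue) and 4 antimiR-195 (orange) libraries, ordered by mean, from Pycard at 11.7 to Il1rl1 at 0.210. Black bars are the mean over 8 libraries with the same counts divided by GENCODE M21 exon lengths, which lowers Pycard to 4.34. A longer M21 length can understate a level, since the counts were not made again.

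Other ligands of the family were scarce. Il36a, Il36b, Il36rn and Il1f10 had 0 counts in all 8 libraries, where 3 counts, the limit that a count of 0 allows, would be at most 0.180 CPM. Il1a had 0 to 6 counts per library, and Il18, an inflammasome substrate, was the 1 tested gene of the 7 listed, at 1.77 ± 0.585 against 1.63 ± 0.790 CPM. Its log2 fold change was -0.11 ± 0.36, or -0.47 when antimiR-195 replicate 2 was left out and 0.05 when replicate 3 was. Of the 7 other receptors and binding proteins 4 were tested, 1 positive and 3 negative, with 0 passing. Sigirr, which dampens interleukin-1 signalling, was at 0.17 ± 0.19, or 0.01 without antimiR-195 replicate 2. Il18bp, the binding protein of interleukin-18, was at -0.08 ± 0.12, or -0.17 without it.

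Downstream of the receptors, 16 genes from Myd88 to Rela were tested, 6 positive and 10 negative, with a median of -0.03 and 0 passing. The TAK1 adaptor Tab1 was at 0.14 ± 0.11, or 0.07 without antimiR-195 replicate 2. The ubiquitin ligase Traf6 was at -0.12 ± 0.14, or -0.04 without the same library, which was the lowest of all 8 for 9 of the 16 genes. The share of all tested genes lowest in that library was not counted. Of 18 other inflammasome genes 14 were tested, 7 positive and 7 negative, with a median of -0.03 and 0 passing. The flagellin receptor Naip5 was at 2.68 ± 0.649 against 3.73 ± 0.452 CPM, a log2 fold change of 0.48 ± 0.21 with an unadjusted p of 0.0445 and an adjusted p of 0.9999 in edgeR's test. With single libraries left out its log2 fold change was 0.38 to 0.62. Naip5 has near-identical copies, so its counts are uncertain. Of the other Naip genes tested, Naip6 went the other way, at -0.45 ± 0.39, and Naip2 was at 0.16 ± 0.20. The ATP-gated channel P2rx7, an upstream trigger of NLRP3, was at -0.25 ± 0.18. It was at -0.14 without hydrogel replicate 2 and at -0.39 without antimiR-195 replicate 3.

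Genes that interleukin-1 is known to induce through NF-κB showed no common direction. Of 14 tested, 7 were positive and 7 negative, with a median of -0.02, and 0 passed. The monocyte chemokine Ccl2 was at 14.7, 12.5, 13.4 and 15.1 CPM with hydrogel and 21.4, 28.01, 13.6 and 15.0 CPM with antimiR-195. Its difference rested on antimiR-195 replicates 1 and 2, with a log2 fold change of 0.49 ± 0.21, or 0.25 without replicate 2. The acute phase gene Saa3 was at 19.1, 17.2, 24.7 and 10.2 CPM with hydrogel and at 12.1, 11.5, 2.21 and 12.4 CPM with antimiR-195. AntimiR-195 replicate 3 was its lowest library by far, and the log2 fold change of -0.89 ± 0.43 became -0.57 without it. Without hydrogel replicate 4 it was -1.09. The unadjusted p in edgeR's test was 0.0438 for Ccl2 and 0.0622 for Saa3. Neither gene passed, at an adjusted p of 0.9999 in the same test. The 10 markers of macrophages and monocytes, cells known to make Il1b, summed to 1294 to 1819 CPM with hydrogel. With antimiR-195 they summed to 1753 CPM in replicate 2 and to 1132 to 1352 CPM in the other libraries. Lyz2 alone was 756 to 1326 CPM of these sums, with its highest value in antimiR-195 replicate 2. Of the 10, 2 were positive and 8 negative, with 0 passing. The inflammatory monocyte markers among them had opposite signs. Ccr2, the receptor for the Ccl2 product, was at 29.3 to 43.5 CPM with hydrogel and 27.4 to 32.6 CPM with antimiR-195, a log2 fold change of -0.32 (unadjusted p of 0.0338 and adjusted p of 0.9999 in edgeR's test). Ly6c2 was at 1.02 to 2.83 CPM and 1.82 to 4.76 CPM, a log2 fold change of 0.84 ± 0.38 (unadjusted p of 0.0525 and adjusted p of 0.9999 in edgeR's test), the largest of the list, with its highest value in antimiR-195 replicate 2.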

How the data were processed

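Polyadenylated RNA of 8 left ventricle samples was sequenced from TruSeq stranded libraries, per the labels' protocols. STAR, HTSeq, DESeq and GRCm38 are named in the submitters' processing notes, without versions. The authors deposited whole-number HTSeq counts per Ensembl gene, per library and as 1 table, which were compared and had 0 differing cells, and RPKM values, whose lengths follow from counts and total gene counts. Between 42.1% and 47.8% of alignments were not unique and are not in the gene counts.

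Genes were named through GENCODE M21 (GRCm38). Counts were filtered (filterByExpr), scaled by TMM and tested with edgeR 4.0.16 (quasi-likelihood, two-sided, R 4.3.3) over all genes, with Benjamini-Hochberg adjustment and a threshold of 0.05. CPM use the scaled library sizes. Ratios and correlations used log2(CPM + 0.1) and exact two-sided permutation tests. Alternatives were DESeq2 1.42.0, limma 3.58.1, other scaling, no filter, other pseudocounts and leaving out each library. Groups follow the drug label, and replicate numbers are in accession order. Named genes were the 10 members and the 2 genes of smallest p in each of 5 pathway lists; markers are from 8 lists, and genes alike in pattern were ranked by Pearson r. The markers Cpa3, Gata3, Lyz2, Ccr2, Ly6c2, Csf3r and Cxcr2 were singled out after their values were seen. So were Naip2, Naip6 and the pair Il1b and Nlrp3. Members and lists were chosen with earlier results of these data known.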

Additional observations from a re-analysis of the deposited data

Results flagged for a closer look

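In each group of 4 libraries, members and ratios were checked for a library far from the other 3, in 28 groups of values, of which chance alone flags about 1 in 20. Nlrp3 in hydrogel replicate 3 was at 1.34 CPM, where the other 3 hydrogel libraries lay between 2.00 and 2.12 CPM. Casp1 in hydrogel replicate 4 was at 7.22 CPM, where the others lay between 4.44 and 4.71 CPM. Hydrogel replicate 4 was also the hydrogel library with the highest Il1r1, Il1rap and Il1r2.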

How the results depend on the processing

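No gene passed in any of the 13 alternative settings of the test (0 called in each, with 104 to 428 at an unadjusted p below 0.05), and 0 members had an unadjusted p below 0.05 in any. Il33 and Il1rn kept their sign in all 13. With limma-voom and quality weights, which gave antimiR-195 replicate 2 a weight of 0.162, Il1r2 was at -0.0324, Il1rap at -0.0522 and Pycard at -0.20. In the same setting Il1rl1 was at 0.39, above its range below, Il1b at 0.03, Il1r1 at 0.04, Il1rn at 0.03, Casp1 at 0.03, Nlrp3 at 0.00863 and Il33 at -0.20. With limma-trend on log2(RPKM + 0.1) Pycard was at -0.00142. When single libraries were left out, log2 fold changes ranged from -0.00368 to 0.29 for Il1b, -0.0104 to 0.20 for Il1r1, -0.0796 to 0.56 for Il1r2, -0.13 to 0.14 for Il1rap, -0.0152 to 0.35 for Il1rl1, -0.0882 to 0.22 for Nlrp3, -0.0366 to 0.23 for Casp1 and -0.24 to 0.17 for Pycard. Differences in log2 ratios ranged from -0.23 to 0.11 for Il1rn over Il1b, -0.22 to 0.34 for Il1r2 over Il1r1 and -0.15 to 0.0947 for Casp1 over Nlrp3. The cause of these changes of sign was not tested. The count of correlated pairs was 0 in all 10 alternatives. No paired analysis was possible because the labels give no pairing between the groups. At 17 to 107 counts per library for Il1rl1, Nlrp3, Il1r2, Il1rn and Il1b, counting error alone is 11.2% to 19.2% of the mean.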

Other observations

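Genes whose log2 CPM followed a member most closely over the 8 libraries were picked from about 12150 candidates, so high values are built into the choice and carry no test. They were Cactin (r = 0.971), Zc3h10 and Rnf8 for Il1b, Atp10a (r = 0.941), Gpsm2 and Ankzf1 for Il1rn, Tmod1 (r = 0.969), Smg5 and Cdh13 for Il1rl1, and Pard6b (r = 0.974), AI467606 and Tpst2 for Il33. Without antimiR-195 replicate 2 the values of the same genes were 0.955, 0.961 and 0.936 for Il1b, 0.921, 0.929 and 0.901 for Il1rn, 0.968, 0.958 and 0.955 for Il1rl1, and 0.975, 0.918 and 0.948 for Il33, in the order named.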
